A study of Mus musculus with 12 samples.

Results

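A set of 8 genes of arginine and nitric oxide metabolism were followed in mouse dendritic cells stimulated with lipopolysaccharide (LPS), a bacterial cell wall molecule. They were Slc7a2, which encodes an arginine transporter, Nos2, the inducible nitric oxide synthase, Gch1, Ass1, Asl, the arginases Arg1 and Arg2, and Odc1. Their probes were found by the RefSeq accession printed for each probe, and where a gene had several, the brightest by mean intensity stood for it. All 8 members were found, on 11 probes, among 16358 named genes of the array. All 8 also passed the filter on dim probes, among 11095 genes that could be tested. Arg2 passed only through the 6 h and 24 h groups, and Nos2 through the 3 LPS groups. The groups were unstimulated cells and cells kept for 1, 6 or 24 h in 100 ng/ml LPS, with 3 arrays each and 12 arrays in all. Every group was grown from mouse bone marrow, depleted of B and T cells, in 10 ng/ml GM-CSF and 5 ng/ml IL-4 over 5 days, and no sort before RNA extraction is named. IL-4 is itself a known inducer of Arg1, so the unstimulated cells had already met it. The labels name no strain or age. On each array, Cy5-labelled RNA of the cells competed with a Cy3-labelled mouse RNA pool, identical on all arrays, and a value is the log2 ratio of Cy5 to Cy3. The 3 samples of a group are labelled biological replicates and carry the letters A, B and C. A letter is called a donor here, and the labels do not state whether it is 1 animal throughout.

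Arginine is imported by cationic amino acid transporters and then split between competing enzymes. Nitric oxide synthase turns it into nitric oxide and citrulline and needs tetrahydrobiopterin, whose synthesis starts with Gch1. The argininosuccinate enzymes Ass1 and Asl turn citrulline back into arginine. Arginases turn arginine into urea and ornithine, from which Odc1 makes the polyamine putrescine. In macrophages and dendritic cells, high Nos2 is a textbook mark of stimulation by bacterial products, and high Arg1 of stimulation by IL-4.

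The arrays lay on 4 slides, and the unstimulated arrays never shared one with 6 h or 24 h arrays. All 3 lay on 1 slide with 1 of the 1 h arrays. With slide as a block, every comparison with unstimulated cells therefore rests on that 1 h array. Unstimulated cells were taken at 0 h alone, so LPS and added time in culture cannot be told apart. On each array 48.1 to 57.6% of the probes were well above background in the Cy5 channel, on all of their spots. Of 10 markers of conventional dendritic cells, 9 could be tested, and Cd209a was not above background on any array. Their mean log2 ratio lay at 3.09 to 3.41 at 24 h and at 2.74 to 2.98 in unstimulated cells. Of the 9, 3 rose and 1 fell at 24 h, with a median change of 0.24. Of 10 neutrophil markers, 7 could be tested. Their mean log2 ratio lay at 3.22 to 3.65 in unstimulated cells, at 2.13 to 2.69 at 1 h, at 1.20 to 2.06 at 6 h and at 1.01 to 1.93 at 24 h, and Elane was not above background on any array. The mean of 6 testable macrophage and monocyte markers of 10 lay at 0.79 to 0.87 in unstimulated cells. It lay at 1.19 to 1.23 at 1 h, 1.84 to 1.98 at 6 h and 2.00 to 2.25 at 24 h. These 6 went both ways: 3 rose and 1 fell at 6 h, and 3 rose and 2 fell at 24 h. Of all genes 16.1% rose and 23.5% fell at 6 h, and 18% and 21.5% at 24 h. The median change of the 6 was -0.08 at 1 h, 0.67 at 6 h and 0.22 at 24 h. The part of these shifts in the results below was not tested, and in such bulk samples fewer cells of a type and less RNA per cell cannot be told apart.

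The promoter regions of 3 of the 8 members could be matched in the RefSeq table, and all 3 are shown. Of these genes, Gch1 rose, Odc1 fell and Ass1 passed no test. Each run below spans 250 bases before to 50 bases after the annotated start, 5′ to 3′ on the strand of the gene, in the build GRCm38.p6. Capitals mark matches to any of 9 motifs searched on both strands.
Gch1, chr14:47189364-47189663, minus strand: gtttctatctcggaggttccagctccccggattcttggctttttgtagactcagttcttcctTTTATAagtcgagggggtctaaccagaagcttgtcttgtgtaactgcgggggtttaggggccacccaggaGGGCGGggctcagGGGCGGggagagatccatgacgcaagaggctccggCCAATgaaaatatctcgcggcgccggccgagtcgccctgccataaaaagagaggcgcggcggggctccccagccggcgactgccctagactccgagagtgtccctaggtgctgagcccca
Odc1, chr12:17544623-17544922, plus strand: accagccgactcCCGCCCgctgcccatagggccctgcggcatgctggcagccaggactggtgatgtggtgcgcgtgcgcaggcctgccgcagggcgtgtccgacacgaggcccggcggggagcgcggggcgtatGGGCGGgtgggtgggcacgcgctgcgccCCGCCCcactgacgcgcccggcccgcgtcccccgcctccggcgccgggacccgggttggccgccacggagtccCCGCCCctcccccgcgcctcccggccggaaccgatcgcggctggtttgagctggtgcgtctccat
Ass1, chr2:31470020-31470319, plus strand: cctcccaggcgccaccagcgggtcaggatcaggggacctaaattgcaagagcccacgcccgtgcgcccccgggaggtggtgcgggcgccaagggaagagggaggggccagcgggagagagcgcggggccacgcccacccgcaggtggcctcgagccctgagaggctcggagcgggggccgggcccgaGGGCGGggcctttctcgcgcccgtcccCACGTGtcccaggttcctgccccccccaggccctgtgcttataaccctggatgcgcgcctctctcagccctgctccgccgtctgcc
The GC box GGGCGG was found once for Ass1, in 2 places for Gch1 and in 4 for Odc1, and 35.7% of all 32851 promoters in that table hold it. The Gch1 region also held the CCAAT box CCAAT (37.4% of promoters), with its first base 70 bases before the start, and the TATA box TATAAA (13.6%) on the other strand, 188 bases before it. The Ass1 region held the palindromic E-box CACGTG (7.15%), 36 bases before the start. None of the 3 windows held the kappa B letters GGGANNNTCC (4.59% of promoters), the interferon response letters GAAANNGAAA (3.44%), the STAT6 spacing TTCNNNNGAA (6.95%), the cyclic AMP response letters TGACGTCA (1.79%) or the AP-1 letters TGACTCA (5.2%). No motif overlapped another in these windows. Odc1 had 42 CpG pairs and a GC content of 78%, against 27 and 74% for Ass1 and 20 and 60.3% for Gch1. The matches describe letters only.

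**Figure D1:**
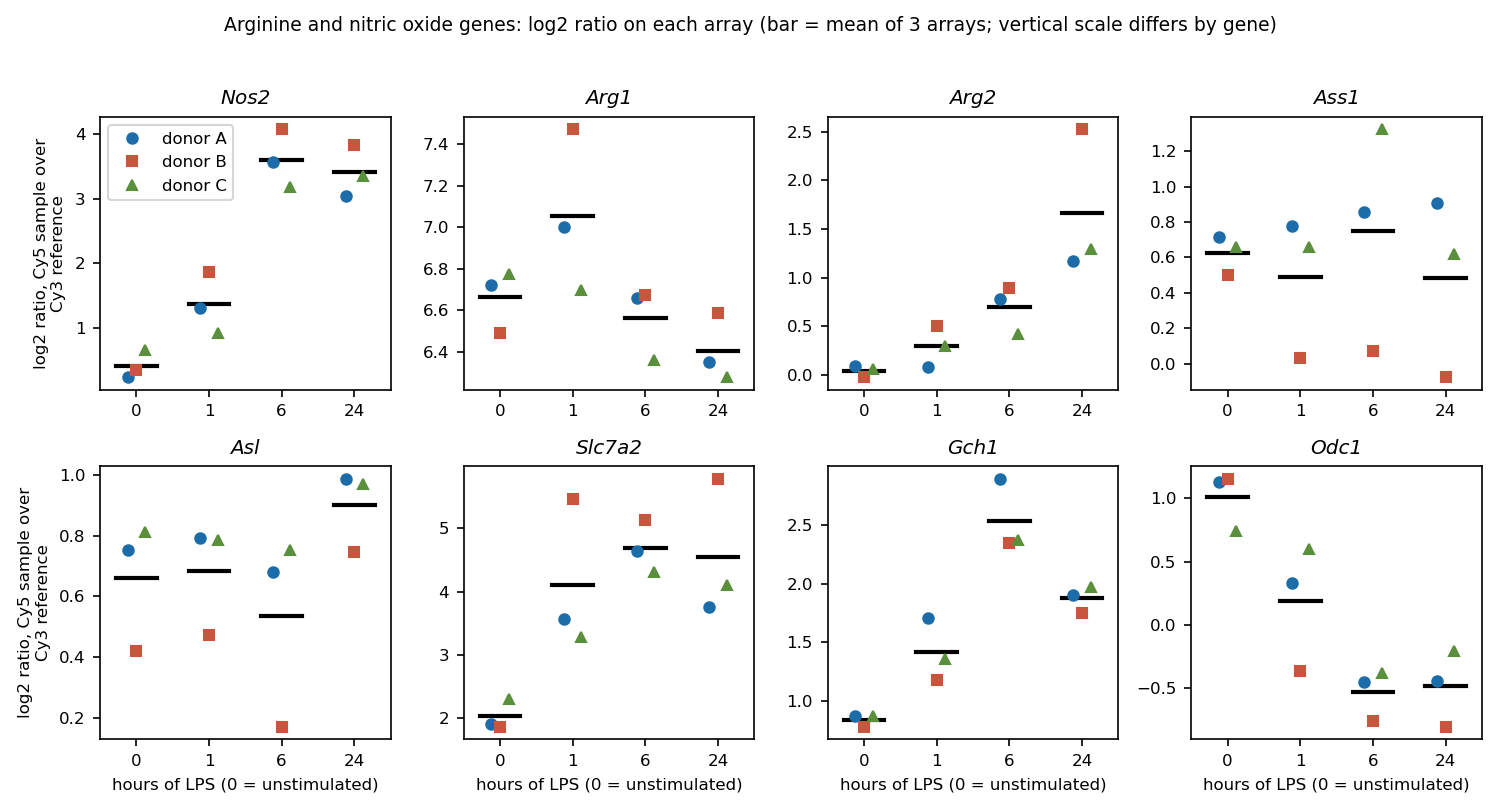
Log2 ratio of Cy5 (cell RNA) to Cy3 (reference RNA) of the 8 genes on each of the 12 arrays, by hours of LPS, with 1 symbol per donor and a bar for the mean of 3 arrays; the vertical scale differs by gene. Nos2, Slc7a2 and Gch1 stood higher at 6 h and 24 h than in unstimulated cells on all arrays, Odc1 stood lower, and Arg2 was highest at 24 h.

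Counted over the 8 members, 1 rose and 0 fell at 1 h (Slc7a2), while 4.06% of all genes rose and 3.39% fell. At 6 h 3 rose (Slc7a2, Nos2, Gch1) and 1 fell (Odc1), against 16.1% and 23.5% of all genes. At 24 h 4 rose, with Arg2 added, and 1 fell, against 18% and 21.5%. For 6 h against 1 h, 2 members rose and 1 fell (12% and 16.2% of genes), for 24 h against 6 h 1 rose and 1 fell (9.64% and 8.76%), and for 24 h against 1 h 2 rose and 2 fell (13% and 15.8%). With 8 members these shares are coarse. Arg2 and Nos2 passed the filter on dim probes only through groups given LPS, so their rises are not independent of that filter. With only probes above background on all arrays, 3 members were called at 6 h and 3 at 24 h. Ass1 and Asl were in none of these counts. The median change of the members was 0.32, 0.39 and 0.63 at 1, 6 and 24 h, against 0.02, -0.04 and 0.02 over all genes.

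Slc7a2 encodes the cationic amino acid transporter whose expression macrophages and dendritic cells raise when activated. Its log2 ratio was 1.90, 1.86 and 2.30 in unstimulated cells of donors A, B and C, 3.56, 5.47 and 3.28 at 1 h, 4.64, 5.13 and 4.31 at 6 h and 3.75, 5.79 and 4.11 at 24 h. All 9 LPS arrays lay above all 3 unstimulated ones, and the LPS groups overlapped one another. Against unstimulated cells, Slc7a2 was 4.23-fold higher at 1 h (log2 change 2.08, SE 0.55, adjusted p = 0.0405, limma), 6.38-fold at 6 h (2.67, SE 0.55, adjusted p = 0.0021) and 5.76-fold at 24 h (2.53, SE 0.55, adjusted p = 0.00307). The order of the means was 6 h, 24 h, 1 h and unstimulated, and none of the differences among the LPS times passed the test: the change was -0.15 at 24 h against 6 h (95% interval -1.35 to 1.05), 0.45 at 24 h against 1 h (-0.76 to 1.65) and 0.59 at 6 h against 1 h (-0.61 to 1.79, adjusted p = 0.474). With slide as a block, the last of these was 1.34 and passed (adjusted p = 0.00345). On the slide with 2 arrays of 6 h and 1 of 1 h, it was 1.61. The Cy5 signal stood well above background on all 12 arrays and the Cy3 signal on 2 of 12. With local backgrounds as deposited the calls at 6 h (1.42, adjusted p = 0.26) and at 1 h (1.91, adjusted p = 0.292) were lost.

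Arrays of a group varied more for Slc7a2 than for most genes. Its residual SD of 0.842 was larger than that of 99.7% of the genes tested. The 1 h rise was 1.66 in donor A, 3.61 in donor B and 0.97 in donor C. The call at 1 h was lost without any single one of the 3 unstimulated arrays (adjusted p = 0.139, 0.14 and 0.0614 without A, B and C), without the 1 h array of donor A (0.0543) and without that of donor B, which gave a log2 change of 1.40 (adjusted p = 0.132, limma). It held with slide as a block at 1.54 (adjusted p = 0.0195). By design that value is the difference between the unstimulated arrays and the 1 h array on their slide, so it rests on 1 array of 1 h. The call was also lost with Cy5 alone (1.94, adjusted p = 0.0557), scaled processed Cy5 (0.0627) and no filter on dim probes (0.0582). It held with median centring (1.92, adjusted p = 0.0445) and processed signals of both channels (1.82, 0.0097). With Cy5 alone the 1 member called at 1 h was Arg1.

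Nos2 rose at 6 h and stayed up at 24 h. This gene makes nitric oxide for killing of microbes, and its probe was printed in 10 spots on each array. Its log2 ratio was 0.24, 0.34 and 0.65 in unstimulated cells of donors A, B and C, 1.31, 1.86 and 0.93 at 1 h, 3.57, 4.07 and 3.17 at 6 h and 3.04, 3.83 and 3.34 at 24 h. No LPS array overlapped the unstimulated ones, and the 6 h and 24 h arrays did not overlap the 1 h ones. Spots of one array differed by an SD of 0.071 to 0.176, while the SD over donors was 0.22 in unstimulated cells, 0.47 at 1 h, 0.45 at 6 h and 0.40 at 24 h. Relative to unstimulated cells Nos2 was 9.16-fold higher at 6 h (log2 change 3.19, SE 0.27, adjusted p = 2.69e-06) and 7.98-fold at 24 h (3.00, SE 0.27, adjusted p = 7.03e-06).

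The first hour of Nos2 lay on the threshold. The change was 0.96 (SE 0.27, adjusted p = 0.0527), with all 3 arrays above the unstimulated ones; it was 1.08 in donor A, 1.52 in donor B and 0.27 in donor C. With donor as a block it passed (adjusted p = 0.017), as it did without the 1 h array of donor C (1.18, adjusted p = 0.0257), and with slide as a block it did not (0.90, adjusted p = 0.157). For 6 h against 1 h the change was 2.26, 2.21 and 2.25 in donors A, B and C (mean 2.24, adjusted p = 7.17e-05). With local backgrounds as deposited it was 1.21 and the call was lost (adjusted p = 0.182). At 24 h Nos2 was 2.04 above 1 h (adjusted p = 0.000174), and against 6 h the change was -0.20 (95% interval -0.79 to 0.39, adjusted p = 0.669). On the slide that held both, 24 h against 6 h differed by 0.02.

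Sizes for Nos2 rest on the handling of dim signals. All of its spots were well above background on only 1 of 3 unstimulated arrays, and its Cy3 signal on 0 of 12 arrays. The Cy5 signal above local background was at most 1112 units. With the scanner software's processed signals, which carry no added offset, the change was 4.65 at 6 h (adjusted p = 3.38e-05), 4.42 at 24 h and 2.17 at 1 h (adjusted p = 0.0176), so that the fold was 25.1 at 6 h in place of 9.16.

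Gch1, the first and rate-limiting enzyme of tetrahydrobiopterin synthesis, went up to a peak at 6 h. Its log2 ratio was 0.87, 0.78 and 0.87 in unstimulated cells, 1.71, 1.18 and 1.36 at 1 h, 2.89, 2.35 and 2.37 at 6 h and 1.90, 1.75 and 1.97 at 24 h. The 4 groups did not overlap anywhere. Against unstimulated cells Gch1 was 3.23-fold higher at 6 h (log2 change 1.69, SE 0.17, adjusted p = 8.25e-06) and 2.04-fold at 24 h (1.03, adjusted p = 0.000385). At 24 h it was lower than at 6 h by a log2 change of -0.66 (adjusted p = 0.0162), in each of the 3 donors. With slide as a block that fall was -0.51 and missed the threshold (adjusted p = 0.117). Without the 6 h array of donor A it did not pass either (-0.48, adjusted p = 0.0739), nor with local backgrounds as deposited (-0.23, 0.701) or median centring (-1.02, 0.0624). Median centring also took the call at 24 h against unstimulated cells (0.89, 0.0578). At 1 h the change was 0.57 (adjusted p = 0.0552), and it passed with donor as a block (adjusted p = 0.0219). The comparison of 24 h with 1 h gave 0.46 (adjusted p = 0.0553), which passed with donor (adjusted p = 0.0216) or slide (0.67, adjusted p = 0.0304) as a block.

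A second, dimmer probe of Gch1 moved the same way and less. It gave 0.95 at 6 h (adjusted p = 0.000821 over all probes), 0.41 at 24 h (adjusted p = 0.077) and -0.54 for 24 h against 6 h (adjusted p = 0.0489). Of 7 further genes of tetrahydrobiopterin synthesis and recycling, all were tested, and 0 rose and 4 fell at 6 h and again at 24 h, while 23.5% and 21.5% of all genes fell. Spr, which makes the last reduction to tetrahydrobiopterin, fell by 1.05 at 6 h (adjusted p = 3.88e-05) and Pts, the enzyme after Gch1, fell by 1.27 at 24 h (adjusted p = 0.00128). The median change of the 7 was -0.32 at 6 h and -0.56 at 24 h, against -0.04 and 0.02 over all genes.

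**Figure D2:**
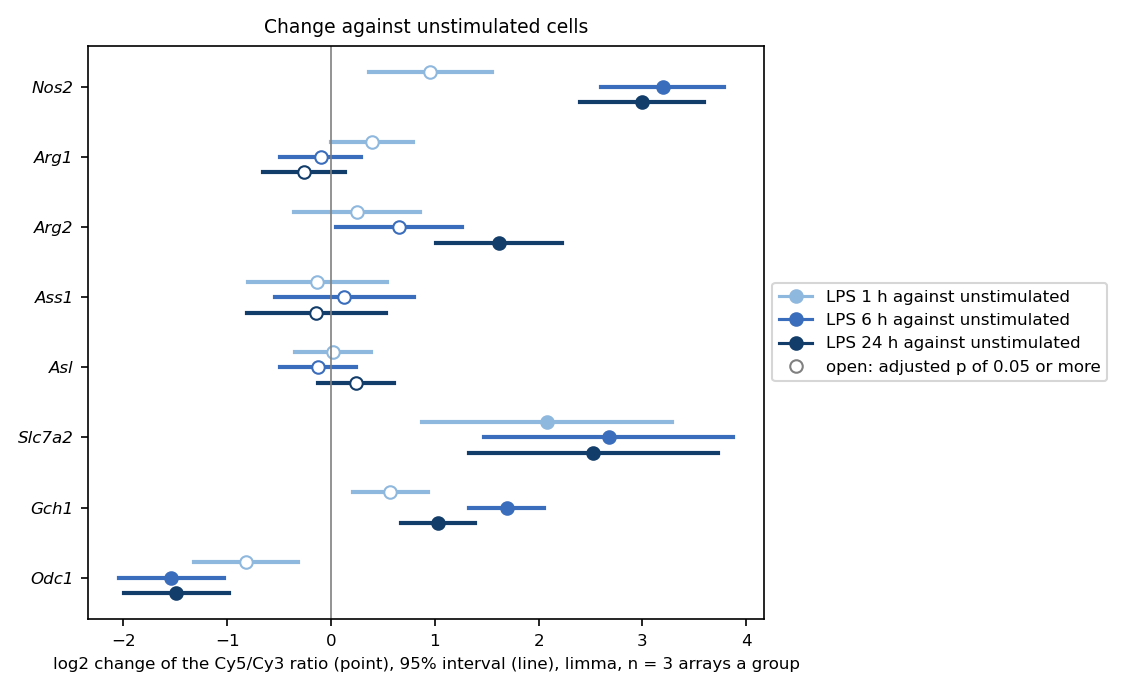
Log2 change against unstimulated cells at 1, 6 and 24 h for each of the 8 genes, with 95% intervals from limma (3 arrays a group); filled points passed an adjusted p of 0.05. The unstimulated level of Arg2 was not above background, so its points are not measured sizes. Nos2 and Slc7a2 had the largest changes at 6 h, Odc1 fell at 6 h and 24 h, and the intervals of Ass1 and Asl took in 0 at every time.

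Ass1 and Asl, the pair that returns citrulline to arginine, passed no test in any of the 6 comparisons. The log2 ratio of Ass1 was 0.72, 0.50 and 0.66 in unstimulated cells, 0.78, 0.03 and 0.66 at 1 h, 0.86, 0.07 and 1.32 at 6 h and 0.91, -0.08 and 0.62 at 24 h. Donor B lay lowest in every group, and the groups overlapped. The 95% interval of its change was -0.80 to 0.54 at 1 h, -0.54 to 0.80 at 6 h and -0.81 to 0.53 at 24 h. Changes within these intervals remain possible with 3 arrays a group. The residual SD of Ass1, 0.455, exceeded that of 96.3% of genes. A moderated F test over the 4 groups gave an adjusted p of 0.826.

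Asl was steadier. Its log2 ratio was 0.75, 0.42 and 0.81 in unstimulated cells, 0.79, 0.47 and 0.78 at 1 h, 0.68, 0.17 and 0.75 at 6 h and 0.99, 0.75 and 0.97 at 24 h. The change was 0.02 at 1 h (95% interval -0.35 to 0.39), -0.13 at 6 h (-0.49 to 0.24) and 0.24 at 24 h (-0.13 to 0.61), and the F test gave an adjusted p of 0.312. Within donors the 24 h value was higher than the 6 h value by 0.31, 0.57 and 0.22. This change of 0.37 (adjusted p = 0.162) passed with donor as a block (adjusted p = 0.031).

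Arg1, the cytosolic arginase, is described first by its ratio and then by each channel. The log2 ratio was 6.72, 6.49 and 6.78 in unstimulated cells, 7.00, 7.47 and 6.70 at 1 h, 6.66, 6.67 and 6.36 at 6 h and 6.35, 6.58 and 6.28 at 24 h. By this ratio only 24 h against 1 h passed, with a log2 change of -0.65 (SE 0.18, adjusted p = 0.017), and all 24 h arrays lay below all 1 h arrays. The change was 0.40 at 1 h (adjusted p = 0.203), -0.10 at 6 h (0.714) and -0.26 at 24 h (adjusted p = 0.287) against unstimulated cells. The 1 call was lost with slide as a block (-0.57, adjusted p = 0.0622), without the 1 h array of donor B (-0.44, 0.0517) or the 24 h array of donor C (-0.59, 0.0641), with local backgrounds as deposited (-0.60, 0.417), with the 2 groups alone (0.0577), and with processed signals, where the change was -0.05 (adjusted p = 0.885). Median centring of the ratio in place of loess gave 2 further calls, -0.64 at 24 h against unstimulated cells (adjusted p = 0.0173) and -0.65 at 24 h against 6 h (adjusted p = 0.0306). For 6 h against 1 h the change of -0.49 (adjusted p = 0.0591) passed with donor as a block (adjusted p = 0.0415).

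The Cy5 signal of Arg1 itself moved much more. Above local background it was 29080, 42745.5 and 59764.5 units in unstimulated cells of A, B and C, 70412, 77681.5 and 89227.5 at 1 h, 36645.5, 36055 and 57664 at 6 h and 17978, 12492 and 18388.5 at 24 h. All 1 h arrays lay above all others, and all 24 h arrays lay below all others. The Cy3 signal of the same spot, from reference RNA that does not change between arrays, was 145, 194 and 260.5 units in unstimulated cells, 306, 353 and 365 at 1 h, 165, 172 and 230.5 at 6 h and 97, 94 and 103.5 at 24 h. It thus followed the Cy5 signal, at 0.400 to 0.752% of it on every array, and the ratio took this shared movement away. Over the 12 arrays the normalised Cy3 signal of Arg1 had an SD of 0.57 on the log2 scale, larger than for 99.3% of the 22644 probes whose Cy3 signal was above background on all arrays (median 0.091). For Asl, Gch1 and Odc1 that SD was 0.093, 0.080 and 0.12, and for Ass1 it was 0.17. Co-movement of the 2 normalised log2 signals was not limited to Arg1. Pearson's r was 0.92 for Arg1, 0.83 for Ass1, 0.71 for Asl, 0.33 for Gch1 and 0.07 for Odc1. The cause was not tested.

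**Figure D3:**
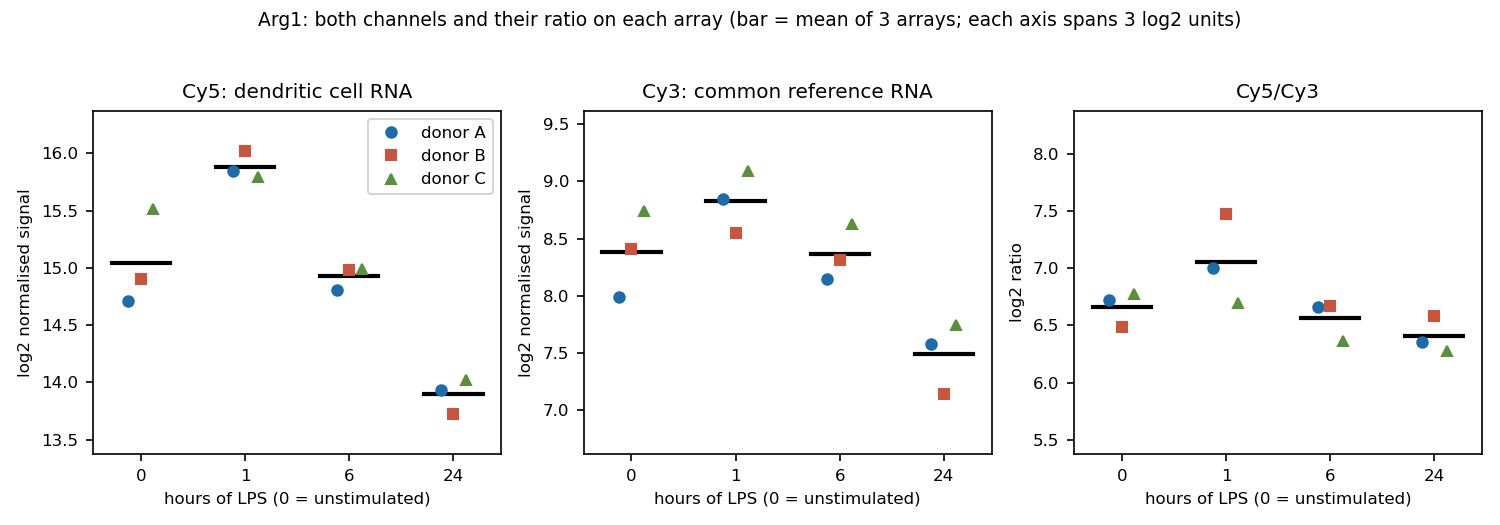
Normalised log2 signal of Arg1 in the Cy5 channel (cell RNA), in the Cy3 channel (reference RNA) and their log2 ratio on each array, by hours of LPS, with 1 symbol per donor and a bar for the mean of 3; each vertical axis spans 3 log2 units. Both channels were highest at 1 h and lowest at 24 h, and the ratio varied less.

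With the Cy5 channel alone, scaled between arrays, Arg1 passed in 5 of the 6 comparisons. Against unstimulated cells it was 1.79-fold higher at 1 h (log2 change 0.84, SE 0.18, adjusted p = 0.0203) and 2.22-fold lower at 24 h (-1.15, adjusted p = 0.000485), while at 6 h the change was -0.12 (adjusted p = 0.672). It was lower at 6 h than at 1 h by a log2 change of -0.96 (adjusted p = 0.00254), at 24 h than at 6 h by -1.03 (adjusted p = 0.00319), and at 24 h than at 1 h by -1.99 (adjusted p = 1.7e-05), which is 3.98-fold. Of all genes, 2.64% rose at 1 h in this channel, and 20.5% fell at 24 h; the share that fell was 12% between 1 h and 6 h, 7.53% between 6 h and 24 h, and 13% for 24 h against 1 h. With slide as a block the 1 h rise missed the threshold (0.80, adjusted p = 0.198), and leaving out 1 array took its adjusted p to between 0.00205 and 0.108. The 24 h fall against unstimulated cells passed in that blocked fit (-1.34, adjusted p = 0.0356) and when any 1 array was left out (adjusted p at most 0.00236). Within slides the Cy5 difference was 0.80 for 1 h against unstimulated, which by design is the blocked value itself. It was -0.90 for 6 h against 1 h, -1.01 for 24 h against 6 h and -2.30 for 24 h against 1 h. From the processed Cy5 signal, scaled to the upper quartile of each array, the 24 h change was -1.14 (adjusted p = 0.00225). For Nos2, Cy5 alone and the ratio gave 24 h changes of 2.97 and 3.00, and for Gch1 0.96 and 1.03.

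Other genes that IL-4 is known to raise in myeloid cells went both ways at 24 h. Of 20 such genes, all tested, 4 rose and 1 fell at 1 h, 5 rose and 6 fell at 6 h, and 7 rose and 8 fell at 24 h. Of all genes, 4.06% rose and 3.39% fell at 1 h, 16.1% and 23.5% at 6 h, and 18% and 21.5% at 24 h. The lectin receptors Mrc1, Clec10a and Mgl2 fell by 2.92, 2.64 and 1.53 at 24 h on the log2 scale of the ratio (adjusted p = 4.03e-05, 3.26e-05 and 1.29e-05). Retnla, a secreted protein of IL-4-treated macrophages, fell by 1.60 (adjusted p = 0.00859). Higher at 24 h were the receptor chain Il4ra (1.50, adjusted p = 0.000128), the transcription factor Irf4 (1.07) and the ligand Pdcd1lg2 (1.15). The median change of the 20 was -0.13 at 24 h, against 0.02 over all genes.

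Arg2, the mitochondrial arginase, was raised at 24 h. Its log2 ratio was 0.09, -0.02 and 0.06 in unstimulated cells, 0.08, 0.50 and 0.30 at 1 h, 0.78, 0.90 and 0.42 at 6 h and 1.17, 2.52 and 1.29 at 24 h. The probe stood well above background on 0 of 3 unstimulated arrays, on 1 of 3 at 1 h and on all 3 at 6 h and at 24 h, and in Cy3 on 0 of 12 arrays. Every 24 h array lay above every other array. In the Cy5 channel after scaling, Arg2 was 2.89-fold higher at 24 h than in unstimulated cells, with dim signals raised to a floor. Mean log2 signals there were 7.65 and 6.11 without the floor, and the ratio gave an adjusted p of 0.000654 (limma). The floor was the lowest signal called above background on an array, and the fold is a difference of means, not a minimum. Dye bias was not tested, since there was no dye swap. At 24 h the log2 ratio was 0.96 above 6 h (adjusted p = 0.0323) and 1.37 above 1 h (adjusted p = 0.00317). At 6 h the bound against unstimulated cells was at least 1.60-fold (adjusted p = 0.0829 for the ratio).

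Both of the weaker Arg2 steps depended on the fit. At 6 h against unstimulated cells it passed with donor as a block (adjusted p = 0.0431), with Cy5 alone (adjusted p = 0.0272) and with processed signals (adjusted p = 0.00019). The step between 6 h and 24 h did not pass without any one of the 6 h arrays (adjusted p = 0.0768, 0.0528 and 0.0976 without A, B and C) and was 1.01 with slide as a block (adjusted p = 0.00536). It was 0.39 in donor A, 1.63 in donor B and 0.87 in donor C. On the slide that held both times it was 0.81.

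Odc1 fell. It encodes ornithine decarboxylase, the first and rate-limiting enzyme of polyamine synthesis. Its log2 ratio was 1.13, 1.15 and 0.74 in unstimulated cells, 0.34, -0.37 and 0.60 at 1 h, -0.45, -0.76 and -0.38 at 6 h and -0.44, -0.80 and -0.20 at 24 h. Every LPS array lay below every unstimulated array, and the 6 h arrays lay below the 1 h arrays, while those of 24 h overlapped both. Against unstimulated cells Odc1 was 2.90-fold lower at 6 h (log2 change -1.54, SE 0.23, adjusted p = 0.000237) and 2.81-fold lower at 24 h (-1.49, adjusted p = 0.000305). At 1 h the change was -0.82 (adjusted p = 0.0511), in the 3 donors -0.79, -1.52 and -0.14, and it passed with donor as a block (adjusted p = 0.0255). Odc1 was lower at 6 h than at 1 h by -0.72 (adjusted p = 0.0356) and at 24 h than at 1 h by -0.67 (adjusted p = 0.0465). Neither of these passed without the 1 h array of donor A (adjusted p = 0.111 and 0.134) or that of donor C (0.141 and 0.188). The first was also lost without the 6 h array of A or B (0.0745 and 0.129), and the second without the 24 h array of A or B (0.0783 and 0.157). With Cy5 alone both missed the threshold too (-0.55 and -0.64, adjusted p = 0.206 and 0.129). Between 24 h and 6 h the change was 0.05 (95% interval -0.46 to 0.55).

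**Figure D4:**
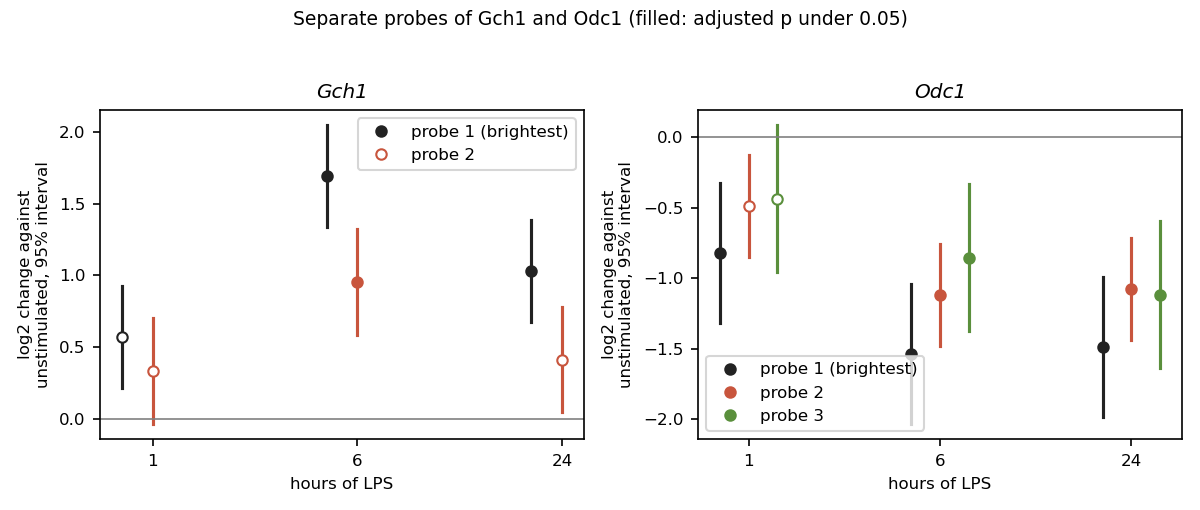
Log2 change against unstimulated cells at 1, 6 and 24 h for the 2 probes of Gch1 and the 3 probes of Odc1, with 95% intervals; filled points passed an adjusted p of 0.05 in a fit over all 21750 probes. The probes of a gene moved in 1 direction, and the brightest moved most at 6 h in both genes.

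The other probes of Odc1 also fell. They gave -1.12 and -0.85 at 6 h (adjusted p = 0.000239 and 0.0146 over all probes) and -1.07 and -1.12 at 24 h (adjusted p = 0.000337 and 0.00307). The mean log2 ratio of the neutrophil markers, given above, was lowest in the groups in which Odc1 was lowest. Their part in the fall was not tested.

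The wider pathway was read from 57 further genes in 7 lists, of which 42 could be tested. In them 1 rose and 2 fell at 1 h, 7 rose and 16 fell at 6 h, and 7 rose and 14 fell at 24 h. Of all genes 4.06% rose and 3.39% fell at 1 h, 16.1% and 23.5% at 6 h, and 18% and 21.5% at 24 h. The number that rose at 6 h and 24 h thus lay near the share of all genes. Their median change was -0.28 at 6 h and -0.15 at 24 h, against -0.04 and 0.02 over all genes, which also stand beside the list medians that follow. The enzymes that lead from ornithine to proline and glutamate went down: of 6 tested, 1 fell at 1 h, 6 at 6 h and 4 at 24 h against unstimulated cells, and 0 rose. Against 1 h, 5 fell at 6 h and 3 at 24 h (16.2% and 15.8% of all genes). At 24 h 2 rose against 6 h (9.64%). Pycrl, which makes proline, fell by 1.13 at 6 h (adjusted p = 8.87e-05). Their list median was -0.82 at 6 h and -0.57 at 24 h.

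Polyamine genes went both ways. Of 11 tested, 3 rose and 3 fell at 6 h, and 3 rose and 3 fell at 24 h, but not all were the same genes. Of all genes 16.1% rose and 23.5% fell at 6 h, and 18% and 21.5% at 24 h. Srm, the spermidine synthase downstream of Odc1, fell by 1.32 at 6 h (adjusted p = 0.000112) and 1.31 at 24 h (adjusted p = 0.000128). Sms, the spermine synthase, rose by 1.00 at 6 h (adjusted p = 0.000691), and Sat1, which acetylates polyamines for breakdown or export, rose by 1.12 (adjusted p = 0.00558). At 24 h the changes were -0.36 for Sms (adjusted p = 0.128) and 0.06 for Sat1 (adjusted p = 0.89), and both were lower than at 6 h (-1.36 and -1.07, adjusted p = 0.000306 and 0.018). Smox, the spermine oxidase, rose by 1.57 at 24 h (adjusted p = 0.00176), and Paox, which oxidises acetylated polyamines, fell by 1.01 at 6 h (adjusted p = 0.000986). The list median was 0.33 at 6 h and 0.06 at 24 h.

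**Figure D5:**
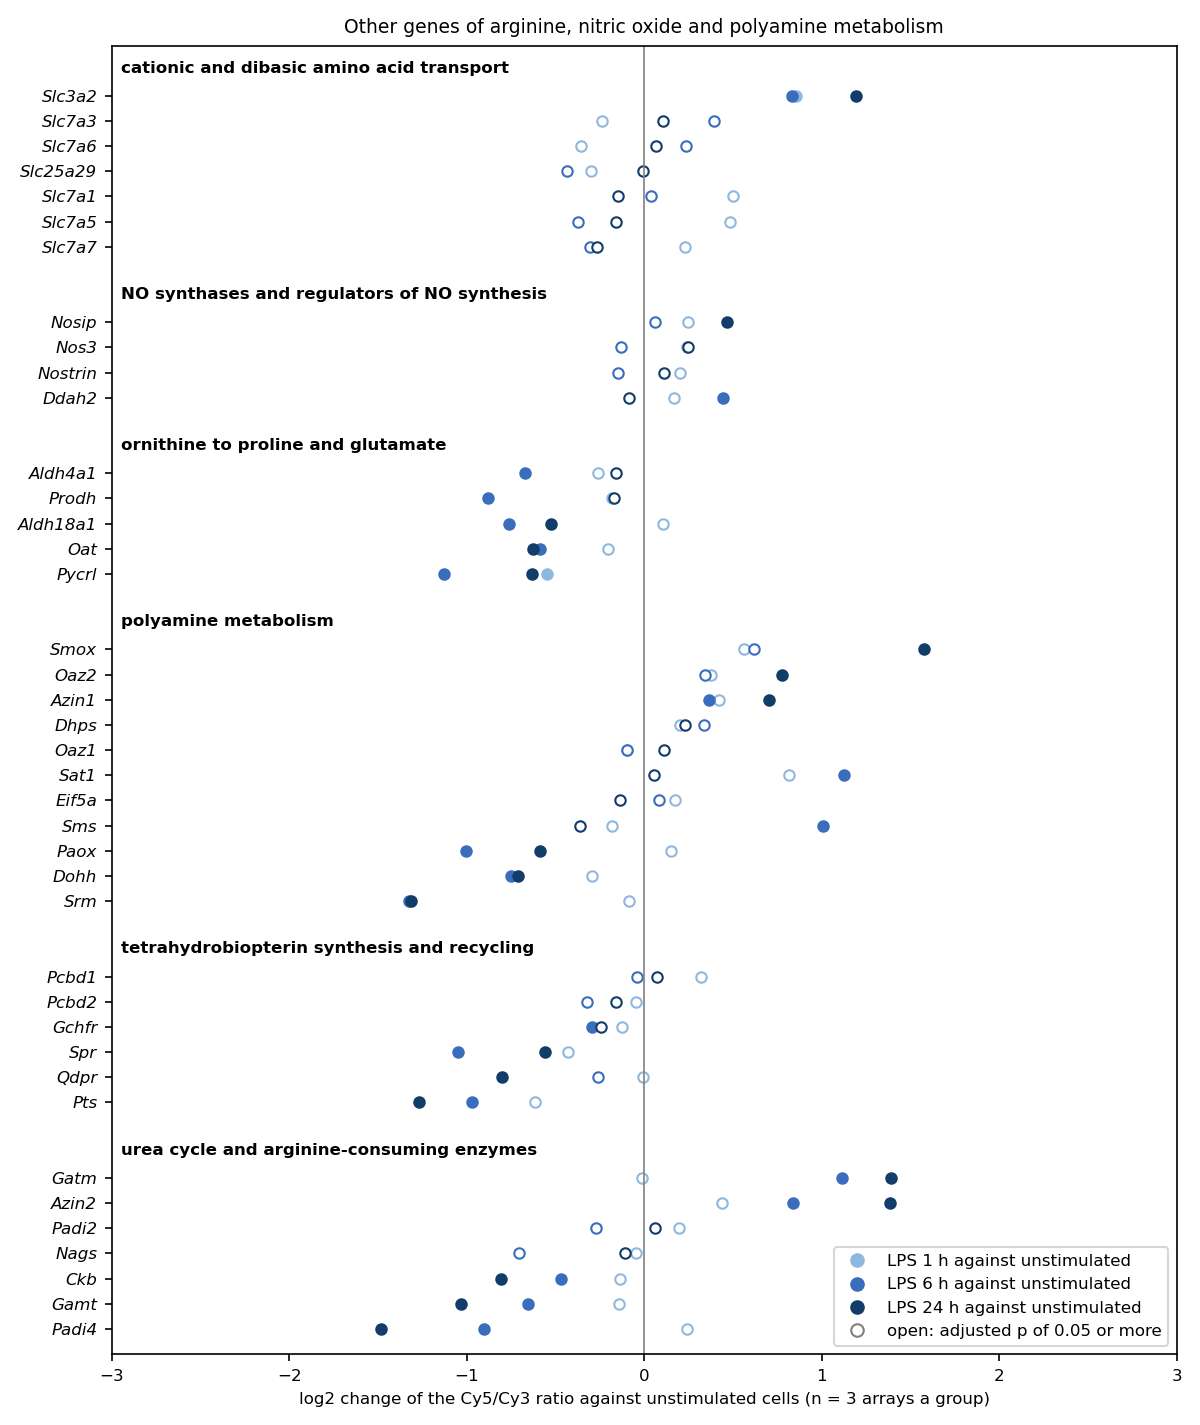
Log2 change against unstimulated cells at 1, 6 and 24 h for 40 of the 42 tested genes of 6 pathway lists, sorted within each list by the 24 h change (3 arrays a group); filled points passed an adjusted p of 0.05. The ornithine to proline and glutamate list has no point that passed on the right of 0, and the transport list has 1 gene that passed.

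In a list named for the urea cycle and arginine-consuming enzymes, 7 of 10 genes were tested, and not all of its genes use arginine. At 6 h 2 rose and 3 fell (16.1% and 23.5% of all genes), and likewise at 24 h (18% and 21.5%). Gatm, which moves the amidino group of arginine to glycine on the way to creatine, rose by 1.12 at 6 h (adjusted p = 0.000778) and 1.39 at 24 h (adjusted p = 0.000174). Gamt, the next enzyme of that route, fell by 1.04 at 24 h (adjusted p = 0.000245). Padi4, which converts arginine in proteins to citrulline, fell by 1.48 at 24 h (adjusted p = 0.000424). Azin2, a relative of Odc1 that binds its antizyme, rose by 1.39 at 24 h (adjusted p = 0.000128). The list median was -0.47 at 6 h and -0.11 at 24 h.

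Genes of transport and nitric oxide control were counted in the same way. Of 7 other transporters tested, 1 rose and 0 fell at each time against unstimulated cells, and this was Slc3a2, the heavy chain that partners several amino acid transporters (1.19 at 24 h, adjusted p = 0.000245). Of all genes, 4.06%, 16.1% and 18% rose at 1, 6 and 24 h, and 3.39%, 23.5% and 21.5% fell. Against 1 h, 2 of these transporters rose and 2 fell at 6 h (12% and 16.2% of all genes). At 24 h 0 rose and 3 fell against 1 h (13% and 15.8%). The list median was 0.04 at 6 h and -0.01 at 24 h. Of 4 tested genes for other synthases and regulators of nitric oxide synthesis, 1 rose at 6 h (Ddah2) and 1 at 24 h (Nosip). Of all genes 16.1% rose at 6 h and 18% at 24 h. Ddah2 and Nosip were named after their values were seen. None of the 4 genes of the nitric oxide receptor and cyclic GMP list that the array holds passed the filter on dim probes.

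The 3 genes most like each member in log2 ratio over the 12 arrays are named with Pearson's r as a description, since the 4 groups of arrays set most of these values. Nos2 was most like Plpp3 (0.990), Ifitm3 (0.989) and Dennd1a (0.988). Slc7a2 was most like Rabgef1 (0.978), Rgl1 (0.974) and Hpse (0.970). For Gch1 these were Tnfsf15 (0.970), Ube2r2 (0.965) and Rab8a (0.964). Arg2 had Ccr4 (0.972), Vnn3 (0.964) and C1ra (0.963). Odc1 had the transferrin receptor Tfrc (0.980), Cks2 (0.977) and Slc46a3 (0.976). Arg1 had Smagp (0.963), Hexa (0.957) and Hspa9 (0.936). Asl had Map4k2 (0.925), Map7d1 (0.924) and Slc25a38 (0.905), and Ass1, with the lowest values of the 8, had Oxsm (0.869), Pfkfb1 (0.865) and Pdia5 (0.850).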

How the data were processed

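RNA of the 12 samples was measured on 2-colour Agilent arrays, with 750 ng of labelled cRNA a sample per the labels. Deposited scanner files hold, per the file headers, spot and local background intensity from Feature Extraction 10.7.3.1, without normalization. A deposited table of values holds log2 ratios that the authors made with limma, per the submitters' processing notes; its version is not given in the sources used here. These matched the values derived here at r of at least 0.999.

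Computed here in R 4.3.3 with limma 3.58.1, reading files with jsonlite 2.0.0 and data.table (version 1.17.8): normexp background correction of median signals (offset 50, local backgrounds marked as outliers replaced by the array median, feature outliers left out, both chosen after seeing the files), loess within arrays (span 0.3, 1639 control spots at weight 0), a filter keeping probes well above background in Cy5 on all 3 arrays of at least 1 group, and 1 mean per group over 12 arrays (8 residual degrees of freedom, two-sided empirical Bayes tests). Benjamini-Hochberg adjustment ran over 11095 genes, and a call is an adjusted p under 0.05. Of 41174 probes, 22951 had a symbol through RefSeq. No spot was saturated. The number of arrays limits precision. Each p-value tests a difference of group means against the spread between these 12 arrays, which are treated as independent.

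All 8 members are named; other genes had to pass the test with at least 2-fold change in some comparison, apart from at most 2 a list. Likeness took the 3 highest r. Single values of a few pathway genes, which stay in the counts and medians of their lists, are not reported here. Members and lists were chosen with earlier results of these data known. The pairing check used deviations from group means: 18 same-donor pairs correlated at a median r of 0.11 (-0.21 to 0.58), and 9 passed 0.1. The 36 pairs of different letters had a median r of -0.01 (-0.53 to 0.41), and 8 passed 0.1. The highest same-donor pair, 1 h and 24 h of donor B, also shared a slide. The letters A, B and C come from the labels and are called donors here. A fit with donor as a block is given where it changed a call. Code was tested on simulated data. Slides, channels, backgrounds, filters and single arrays left out were the other alternatives; Cy5 alone with slide as a block and scaled processed Cy5 signals were added after seeing the data.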

Additional observations from a re-analysis of the deposited data

How the results depend on the processing

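Limits were the 3 arrays a group, dim probes (Nos2 and Arg2, and Slc7a2 in Cy3) and slides that part unstimulated from 6 h and 24 h arrays. Over 900 values of single members under alternatives, 805 kept their direction and side of the threshold or stayed uncalled, 51 lost a call, 44 gained one and 0 reversed with a call; 45 uncalled values changed sign. Causes were not tested. With local backgrounds as deposited, Gch1 for 6 h against 1 h (0.72, adjusted p = 0.205) also lost its call. Without 1 array, calls were gained by Odc1 at 1 h (unstimulated C, 0.0485; 1 h C, 0.021), Arg1 for 6 h against 1 h (1 h C, 0.0168) and Gch1 for 24 h against 1 h (1 h A, 0.0244).

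Members called were 1, 4, 5, 3, 2 and 4 for 1, 6 and 24 h against unstimulated, 6 h against 1 h, 24 h against 6 h and 24 h against 1 h, among 827, 4397, 4372, 3128, 2042 and 3196 genes. Those for 1 h became 0 with local backgrounds as deposited, without the filter or with Cy5 alone and slide as a block, 2 with the authors' values, probes above background everywhere, probe means, processed Cy5 or the 2 groups alone, and 3 with processed signals. With donor as a replicate block they became 4, and the counts for the other comparisons were 5, 5, 4, 3 and 5; the block changed the call of no member beyond those given above. The 6 h against 1 h count became 0 with backgrounds as deposited, 5 with slide as a block and 6 with Cy5 alone and slide. That of 24 h against 6 h became 1 with backgrounds as deposited, median centring, probes above background everywhere, slide or the 2 groups alone. That of 24 h against 1 h became 2 with backgrounds as deposited, the 2 groups alone or probes above background everywhere, which also left 3 at 24 h.

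All genes called at 1 h became 243 with backgrounds as deposited, 225 with median centring or slide as a block, 205 with Cy5 alone and slide and 530 with processed Cy5. At 6 h they became 2436, 2018, 1949 and 1963 with backgrounds as deposited, median centring, slide and Cy5 with slide. At 24 h they became 2335, 1762 and 1738 with the last 3 of these. For 6 h against 1 h they became 1373 and 1450, for 24 h against 6 h 790 and 927, and for 24 h against 1 h 1812 and 1112 with backgrounds as deposited and median centring. For 24 h against 6 h, slide gave 868, Cy5 with slide 865 and the 2 groups alone 1355.

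Leaving out 1 array gave 0 to 3 members and 338 to 1046 genes at 1 h, 2083 to 3082 genes for 6 h against 1 h, and 0 to 2 members and 1079 to 1826 genes for 24 h against 6 h.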
